A study of Mus musculus with 2 samples.

Results

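Classical Ly6c2 monocytes of mouse tumours were selected on measured values, as droplet barcodes whose own RNA counts met a fixed rule. A barcode needed at least 300 genes, at least 800 UMIs (unique molecular identifiers, each counting 1 captured RNA molecule) and at most 10% mitochondrial UMIs to pass as a cell. Among these, a monocyte had at least 2 UMIs of Ly6c2, at least 5 of Lyz2, and a UMI of at least 1 of Vcan, Ccr2 and Plac8. It also had at most 1 UMI of the complement genes C1qa, C1qb and C1qc together, fewer than 3 of Krt18, and none of Cd3e, Cd3g, Csf3r, Siglech, Ass1, Cbr2 or Gpnmb. This gave 186 monocytes of 16798 passing barcodes, 87 of 7484 in the control library and 99 of 9314 in the motolimod library.

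The study sequenced CD45-positive immune cells, purified with magnetic beads from dissociated mouse tumours, in a control group and in a group given motolimod, a compound that activates TLR8, a receptor for RNA in endosomes. Its title names TLR8 agonists, PF4 and T cell recruitment as the subject. The design text speaks of 5 biological replicates in each group, while each group is 1 library. Whether mice were pooled is not stated, and the tumour model, strain, age, dose and time of treatment are not given in the sources used here. With 1 library per group no difference has a replicate check, and each 95% interval below covers counting error only. Intervals for a gene treat each UMI as independent, so variation among barcodes is left out of them.

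Classical monocytes leave the bone marrow through the chemokine receptor Ccr2 and enter inflamed tissue and tumours, where they can become macrophages or dendritic-like cells. In the mouse they carry the surface protein Ly6C, encoded in part by Ly6c2, and lose it as they mature into macrophages that express complement C1q, Apoe and the receptors Adgre1 (F4/80) and Mrc1 (CD206). Mouse Tlr8 is known to respond poorly to many agonists of the human receptor, and Tlr7 is its close relative.

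Depth was nearly equal between the monocytes of both libraries. They held 585077 UMIs in the control library and 594688 in the motolimod library, with medians of 5757 and 5829 UMIs and of 1931 and 1998 genes per barcode. The libraries as a whole were not equal, with medians of 14055 and 3742.5 UMIs over passing barcodes. The 2 libraries shared 113 barcode sequences, and 0 control and 3 motolimod monocytes carried one of them. The control library's deepest monocyte, with 34022 UMIs, held 5.81% of all control monocyte UMIs. That barcode had 3 UMIs of Ly6c2 and 9 of Lyz2 beside 7 of Xcr1 and 19 of Clec9a, which mark type 1 conventional dendritic cells, and 1837 of Cst3.

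The label was compared with genes that the rule did not use. The leading genes in both libraries, by fold over the highest of C1q macrophages, neutrophils and T cells, were Tppp3, Chil3, Ms4a4c, Rnase6 and Fn1. Dendritic cells and macrophages low in C1q were not among these classes. The ranking therefore cannot show that a gene, Tppp3 included, is particular to monocytes. Chil3 (Ym1) and Ms4a4c are known genes of classical monocytes. Levels are given as CPM, the UMIs of a gene per 1000000 UMIs summed over the barcodes of a class in 1 library. Chil3 stood at 649 CPM in control monocytes against 2.22 in control C1q macrophages and 117 in control neutrophils. Since the same cells chose the members, these values are a description of the selection. Genes of non-classical patrolling monocytes were also found, and 11 of 87 control and 4 of 99 motolimod monocytes had at least 3 of 6 such markers. A UMI of any of them was in 36 control and 27 motolimod monocytes. Ace stood at 71.8 CPM in control monocytes and 3.46 in all other control barcodes, and Treml4 at 39.3 and 9.61. Cd300e was alike in both, at 20.5 and 20.6.

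Markers of other cell types were counted over all monocytes. Neutrophil markers had a median of 0 per 10000 UMIs in both libraries, reached 606 in the highest control and 4534 in the highest motolimod monocyte, and at least 3 of 11 were seen in 7 and 13 monocytes. Macrophage markers (Adgre1, Apoe and Mrc1 among 7) reached that number in 13 control and 64 motolimod monocytes, with Cd5l at 0 in both. NK cell markers were all at 0 in the control monocytes, and 2 motolimod monocytes had at least 3 of 7. Cd79a and Ms4a1 of B cells, the platelet genes Ppbp, Gp1bb, Gp9 and Gp5, and all mast cell and erythroid markers were at 0 in both, and Itga2b had 0 and 2 UMIs. In all, 10 control and 15 motolimod monocytes had at least 3 markers of a neutrophil, T cell, NK cell or conventional dendritic cell list.

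Monocytes made up 1.16% of passing barcodes in the control library (95% Clopper-Pearson interval 0.932 to 1.43) and 1.06% in the motolimod library (0.865 to 1.29). The ratio of these shares was 0.914, with a counting interval of 0.679 to 1.23 that holds 1. Of Lyz2-positive myeloid barcodes other than neutrophils, monocytes were 2.81% and 3.25%, a ratio of 1.15 (0.857 to 1.56). The shares rest on the condition that Ass1, Cbr2 and Gpnmb be at 0. Of 333 control and 307 motolimod barcodes that met every other condition, 236 (70.9%) and 127 (41.4%) had a UMI of Ass1, and 11 (3.30%) and 84 (27.4%) had one of Cbr2. With Ass1 not limited, the rule gave 307 control and 198 motolimod barcodes, and the ratio of shares was 0.518 (0.431 to 0.622). A share of barcodes depends on the other cell types captured, so more monocytes and fewer other cells cannot be told apart.

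At the edges of the rule the numbers were small. Monocytes with exactly 2 UMIs of Ly6c2 numbered 6 control and 13 motolimod barcodes, and 12 and 31 further barcodes with 1 UMI met all other conditions. Monocytes with 1 C1q UMI numbered 15 and 15, and 10 and 2 barcodes with 2 C1q UMIs stood just outside.

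The genes of the rule differed in level between the libraries, given here as a description only. Ly6c2 stood at 2962 in the control and 2136 in the motolimod monocytes, and Plac8 at 2461 and 1523. Vcan, a matrix proteoglycan, stood at 246 and 111. Ccr2, the receptor for Ccl2 and Ccl7, stood at 379 and 661, and Lyz2, the myeloid lysozyme, at 6490 and 10935.

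Promoter sequences are shown first for the interferon-induced genes, because 7 genes of the interferon-gamma list were lower in motolimod monocytes and 6 of these have a RefSeq promoter. The 250 bases before the RefSeq start site of Cxcl10 and Gbp5 are printed 5′ to 3′ on the strand of the gene, from GRCm38.p6. Cxcl10, an interferon-induced chemokine for T cells, lies on the minus strand, and its window is chr5:92348890-92349139. Gbp5, a guanylate-binding protein of host defence, lies on the plus strand, and its window is chr3:142496684-142496933. Capitals mark matches on either strand to the letters GAAANNGAA (interferon-stimulated response element), TTCNNNGAA (gamma-activated site) and GGGNNTTCC (a shortened NF-kB site), and no 2 matches in these windows overlap. A match of the first letters on the opposite strand is printed as its reverse complement. NF-kB sites of the usual, longer form can stand unmarked in these windows.
Cxcl10: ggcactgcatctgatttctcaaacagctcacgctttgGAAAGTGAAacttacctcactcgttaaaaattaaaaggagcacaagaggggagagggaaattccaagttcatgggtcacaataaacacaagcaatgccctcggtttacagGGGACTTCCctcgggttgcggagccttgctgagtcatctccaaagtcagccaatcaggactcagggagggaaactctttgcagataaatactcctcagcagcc
Gbp5: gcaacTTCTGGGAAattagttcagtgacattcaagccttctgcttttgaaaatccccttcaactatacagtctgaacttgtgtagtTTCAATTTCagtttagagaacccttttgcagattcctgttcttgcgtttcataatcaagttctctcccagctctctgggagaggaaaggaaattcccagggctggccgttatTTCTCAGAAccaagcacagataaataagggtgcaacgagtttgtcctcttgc

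The interferon-stimulated response element letters start 213 bases before the start site in Cxcl10 and 164 before it in Gbp5. For the other lower genes of the list that hold them, the match is shown in capitals with 6 bases on each side. Cd274 encodes the checkpoint ligand PD-L1 (chr19:29367356-29367376, plus strand), Gbp2 a guanylate-binding protein (chr3:142620599-142620619, plus strand) and Socs1 an inhibitor of cytokine signalling (chr16:10785605-10785625, minus strand, the first of 2 matches).
Cd274: ggtggcTTCGGTTTCacagac
Gbp2: tttagtTTCACTTTCactgtc
Socs1: ttgccgGAAAGAGAAaccgaa

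These letters were in 5 of the 6 promoters of the lower interferon-gamma genes, against 8.18% of 27025 RefSeq promoters. They were in 9 of 12 promoters (75%) of all compared genes of that list and in 11 of 18 of the type I interferon list. They were also in the promoter of Gbp7, the 1 gene of the list that was higher. Of 214 promoters of all genes called lower, 13.1% held them, and of 219 promoters of genes called higher, 10.0%. The NF-kB letters were in 4.67% and 9.13% of the same promoters and in 5.61% of all, and in 1 of 6 promoters of the higher NF-kB targets. Many known NF-kB sites do not match these shortened letters, so the counts cannot show that a promoter lacks such a site. A match of letters is a description of the window, not a site in use.

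Levels of 3143 genes with at least 50 UMIs over both libraries and at least 20 CPM in 1 of them were compared in monocytes. A gene is called higher or lower when its level differed at least 1.5-fold and the exact counting interval of the ratio left out 1. In motolimod monocytes 282 genes were higher (8.97% of those compared) and 269 were lower (8.56%), and the median log2 ratio was −0.04. Counts for each list below are read against these shares. Shares of monocytes with a UMI are given beside the levels. With Ass1 not limited, as in the 307 control and 198 motolimod barcodes above, 26 of 80 named genes called lost their call and 4 turned direction. For many named genes, values from that wider set are given below where they end a call or move a ratio by over 1.5 times. Other genes, such as Adgre1 and Ldha, were not followed in that set.

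**Figure D1:**
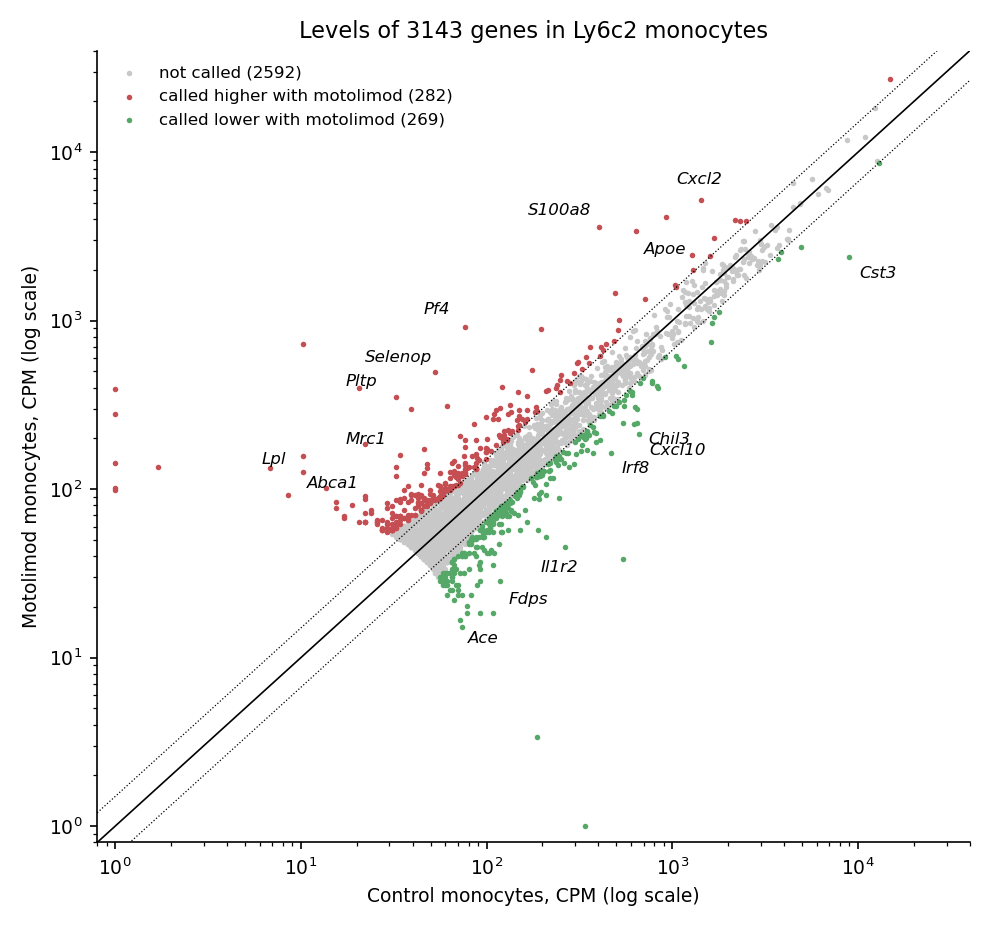
Level of each of 3143 genes in control monocytes (horizontal) and motolimod monocytes (vertical), in CPM on log axes. The solid line marks equal levels, the dotted lines mark 1.5-fold, red points are the 282 genes called higher with motolimod and green points the 269 called lower; the 6 genes with 0 UMIs in a library are drawn at 1 CPM. Pf4, Lpl, Pltp and Selenop lie far above the line, and Il1r2, Ace and Cst3 far below it.

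Genes of macrophage maturation were higher in motolimod monocytes in 9 of 14 cases compared and lower in 0. Their median log2 ratio was 1.25. As a check, the barcode with the most UMIs of a gene was left out, only in the library where the gene was higher. All 9 then kept a ratio of at least 1.5. The same check lies behind every ratio or count without the highest barcodes below. Apoe, which carries lipid and is abundant in tissue macrophages (chr7:19696109-19699188, minus strand), stood at 634 CPM in control and 3412 in motolimod monocytes. That is a ratio of 5.38 (4.81 to 6.03), and 46.0% and 81.8% of monocytes had a UMI of it. In the remaining barcodes of each library Apoe stood at 1429 and 2055, so control monocytes lay below the rest of their library and motolimod monocytes above it.

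Pltp, a phospholipid transfer protein, stood at 32.5 and 353 CPM, a ratio of 10.9 (6.79 to 18.4), and was seen in 9.20% and 47.5% of monocytes. Selenop, a secreted selenium carrier, stood at 53.0 and 493, a ratio of 9.30 (6.41 to 13.9). Ms4a7, a membrane protein of macrophages, stood at 39.3 and 299, a ratio of 7.61 (4.92 to 12.3). Mrc1 was seen in 11.5% and 29.3% of monocytes at a ratio of 4.67, and Adgre1 in 25.3% and 59.6% at 3.75. Maf, a transcription factor of macrophages, was at 2.88, the lipid receptor Trem2 at 1.97 and the protease Ctsd at 1.94. With Ass1 not limited the ratios were smaller, at 2.48 for Apoe, 4.20 for Pltp, 4.67 for Selenop and 1.52 for Ms4a7. Trem2 then had 1.40 and was not called.

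Other macrophage genes of the list were not called. Cd68 had a ratio of 0.76 and Cd63 0.79. Csf1r, the receptor that sustains macrophages, stood at 299 and 430 with a ratio of 1.44. In C1q macrophages of the same libraries Apoe had a ratio of 0.989, Ms4a7 1.41, Pltp 1.75 and Selenop 2.07, each below its value in monocytes. In neutrophils Apoe had 3.65, Ms4a7 1.51 and Pltp 3.63. Selenop had 11.7 there, above its value in monocytes, at 8.99 and 105 CPM. The higher levels were therefore not particular to monocytes. Whether these ratios differ between the classes was not tested, as there is 1 library per group.

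Shares with a UMI were compared also at 3000 UMIs per barcode, a depth to which 79 control and 81 motolimod monocytes could be thinned, leaving out 8 and 18. Apoe was then seen in 40.5% and 76.5% of monocytes and in 4.21% and 5.47% of T cells, which should lack it. Adgre1 was seen in 11.4% and 43.2% of monocytes and in 0.526% and 0.365% of T cells. Pltp was seen in 7.59% and 34.6% of monocytes and in 1.58% and 0.365% of T cells. Selenop was seen in 12.7% of control monocytes and 12.6% of control T cells, so its control share is at the background, against 50.6% and 17.5% in the motolimod library.

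**Figure D2:**
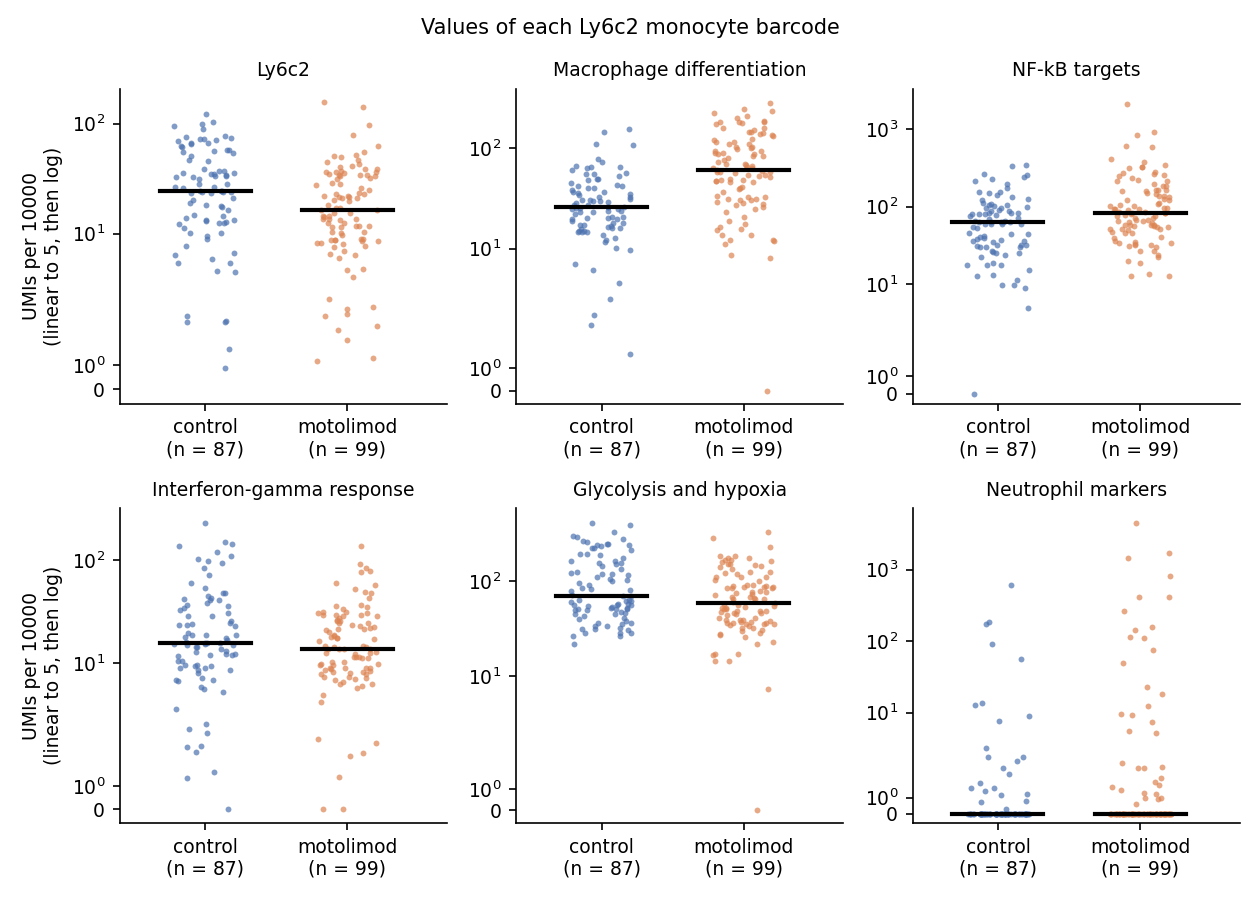
Each point is 1 monocyte barcode (87 control, 99 motolimod) and the black bar is the median; the vertical axis gives UMIs per 10000 UMIs of the barcode, linear up to 5 and logarithmic above. Macrophage differentiation genes have medians of 25.8 and 59.9, and neutrophil markers are at 0 in most monocytes of both libraries and high in a few.

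Summed over the list, macrophage differentiation genes had a median of 25.8 UMIs per 10000 in control monocytes, with a range of 1.63 to 155. In motolimod monocytes the median was 59.9 and the range 0 to 279. The ranges overlap over most of their length, while the upper quartile of control monocytes (41.0) lay below the motolimod median. Macrophage markers in the droplets (at least 3 in 13 and 64 monocytes) moved with this list, which holds all 7 of them, and their part in the result was not tested.

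The rule keeps barcodes with at most 1 C1q UMI, and further barcodes met all its other conditions with more. Those with 2 to 9 C1q UMIs numbered 15 control and 29 motolimod barcodes, and those with 10 or more numbered 62 and 89. From the first class to the last, Ly6c2 stood at 2962, 2361 and 1327 CPM in the control library and at 2136, 1908 and 1712 in the motolimod library. Plac8 stood at 2461, 1415 and 725 in the control library and at 1523, 1960 and 1220 in the motolimod library. Apoe stood at 634, 574 and 2012 in the control library and at 3412, 2983 and 3884 in the motolimod library. Motolimod monocytes had more Apoe than control barcodes with 10 or more C1q UMIs. Adgre1 showed the same order, with 173 in the former and 72.3 in the latter, while Mrc1 stood at 160 and 170 with overlapping intervals.

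**Figure D3:**
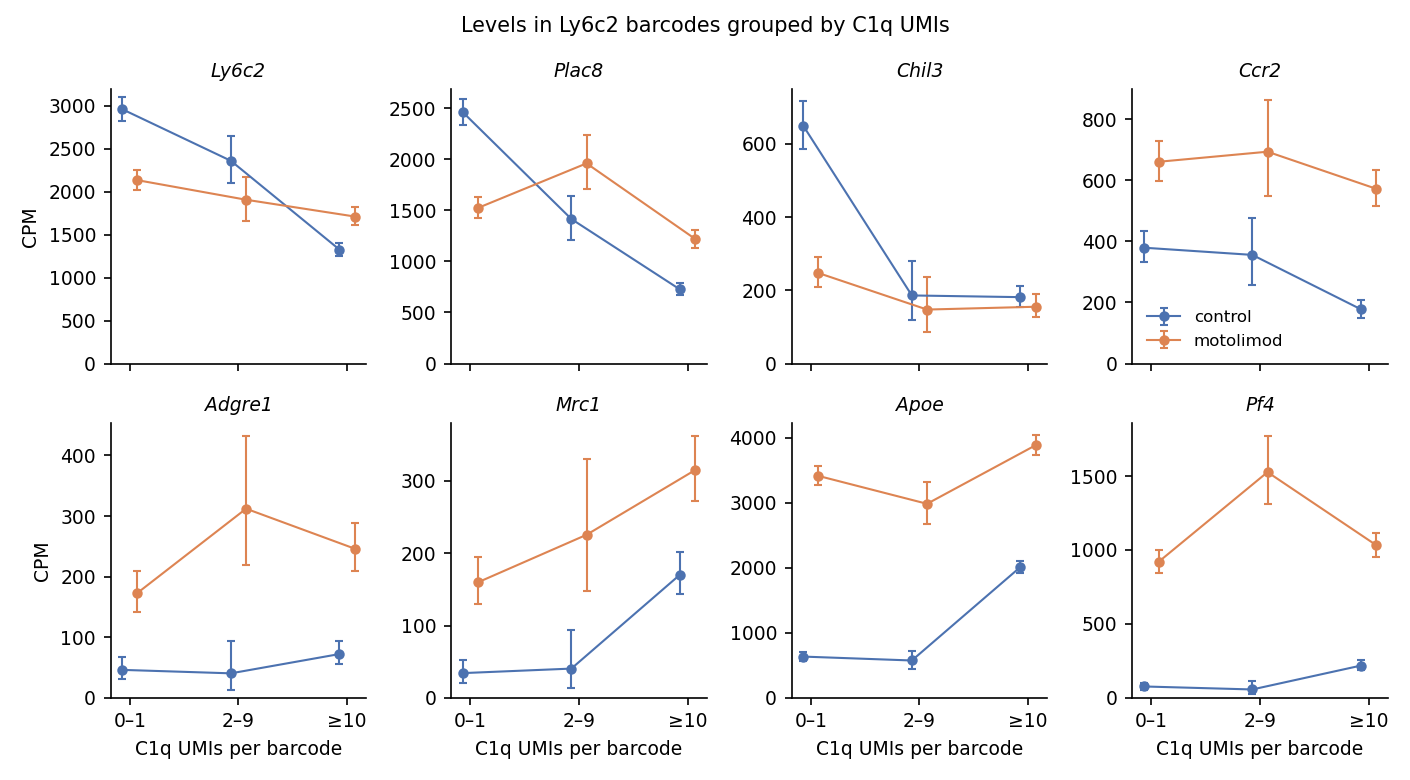
Level of 8 genes, in CPM, in barcodes that meet the monocyte rule (0 to 1 C1q UMIs) and in those that meet it but for 2 to 9 or at least 10 C1q UMIs. Points are sums over the barcodes of a class and library, bars are exact 95% Poisson intervals, and blue is control and orange motolimod. Chil3 is highest in control monocytes (649), and Adgre1, Apoe and Pf4 are higher in the motolimod library in all 3 classes.

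Platelet factor 4, the chemokine named in the study's title, is made by platelets and by some macrophages. Pf4 (chr5:90772435-90773383, plus strand) stood at 76.9 CPM in control monocytes and 921 in motolimod monocytes, a ratio of 12.0 (8.83 to 16.6). It was seen in 7 of 87 and 26.3% of monocytes. These counts were concentrated, as 1 motolimod barcode held 280 of 548 UMIs, or 51.1%. Without that barcode, and with all control barcodes kept, the ratio was 5.93, below the lower limit of 8.83. It was 4.82 where a UMI of 2 of Vcan, Ccr2 and Plac8 was asked for, and 21.1 where all C1q genes had to be at 0. At 3000 UMIs per barcode the shares were 7.59% and 18.5% of monocytes and 2.11% and 9.12% of T cells. In barcodes with 10 or more C1q UMIs Pf4 stood at 218 and 1033, and in C1q macrophages its ratio was 2.78. Neutrophils had 21.0 and 365 CPM, a ratio of 17.4 (10.3 to 32.0), so the higher level was not particular to monocytes. In the remaining barcodes of each library Pf4 stood at 360 and 1621, above the monocytes of both libraries. The platelet gene Ppbp was at 0 in the monocytes of both libraries.

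Chemokines that attract myeloid cells were also higher, 7 of 11 compared with 0 lower and a median log2 ratio of 1.53. Of these, 6 of 7 kept a ratio of 1.5 without the highest barcodes. Cxcl2, a neutrophil attractant, stood at 1436 and 5186 CPM, a ratio of 3.61 (3.35 to 3.90), and was seen in 35.6% and 82.8% of monocytes. Its relative Cxcl3 stood at 197 and 890, seen in 11.5% and 16.2%. Ccl7, a ligand of Ccr2, stood at 492 and 1458 (ratio 2.96), Ccl3 at 176 and 508 (2.88), and Ccl4 at 716 and 1337 (1.87). Ccl8 had a ratio of 19.3, but 92.4% of its motolimod UMIs lay in 1 barcode and the ratio without the highest barcodes was 1.49. With Ass1 not limited Ccl8 had 5.80. Ccl2, the main ligand of Ccr2, stood at 1959 and 1643 with a ratio of 0.84, and Ccl12 had 0.91. Among monocytes of 4000 to 20000 UMIs the ratios of Cxcl2 and Ccl3 were 2.20 and 1.69.

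Targets of NF-kB, the transcription factor that Toll-like receptors activate, had 9 of 17 genes higher and 0 lower, with a median log2 ratio of 0.90. All 9 kept a ratio of 1.5 without the highest barcodes, and 4 of them (Cxcl2, Ccl3, Ccl4 and Nos2) also stand in other lists. Tnf stood at 47.9 and 141 CPM, a ratio of 2.95 (1.90 to 4.70). The feedback inhibitors Tnfaip3 and Nfkbiz had ratios of 2.83 and 2.56, while Nfkbia had 1.23. Acod1, which makes itaconate, had 2.21. Nos2, the inducible nitric oxide synthase, had 4.29, but was seen in 6.90% and 8.08% of monocytes. Il1b, already at 2318 CPM in control monocytes, stood at 2642 with a ratio of 1.14. Per barcode the list had medians of 62.7 and 83.8 UMIs per 10000 with ranges of 0 to 341 and 12.7 to 2134. The highest values, 2134, 903, 828 and 597, were in 4 motolimod barcodes that had 804, 1454, 1738 and 266 UMIs of neutrophil markers per 10000, and the part of these markers in the result was not tested. With the monocytes that had 3 or more markers of another class left out, the median log2 ratio of the list was 0.36.

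Immediate early genes, transcribed within minutes of stimulation and also by tissue dissociation, had 4 of 15 higher and 0 lower. Fosb had a ratio of 3.33, Egr1 2.38, Klf6 1.73 and Dusp1 1.56, while Fos had 1.20, Jun 0.94 and Junb 0.94. Dusp1 had 1.26 with Ass1 not limited and Klf6 1.43 with the rule applied at 3000 UMIs per barcode, and neither was then called. In C1q macrophages Fosb had 1.94 and Egr1 2.34.

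Lipid handling genes had 4 of 8 higher and 1 lower. Lpl, lipoprotein lipase, rested on 6 control and 75 motolimod UMIs, a ratio of 12.3 (5.39 to 34.6), and was seen in 4.60% and 26.3% of monocytes. Its ratio was 1.71 with Ass1 not limited, and 2.07 and not called with the rule applied at 3000 UMIs per barcode. The cholesterol exporters Abca1 and Abcg1 had ratios of 4.09 and 2.77, and the lysosomal lipase Lipa 2.46. Fdps, an enzyme of cholesterol synthesis, stood at 118 and 28.6 with a ratio of 0.24 (0.134 to 0.417).

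Glycolysis and hypoxia genes were the group with the most members lower. Of 21 compared, 13 were lower and 0 higher, with a median log2 ratio of −0.71, and 11 of the 13 were still at least 1.5-fold lower without the highest barcodes. Ldha, which makes lactate, stood at 1615 and 748 CPM, a ratio of 0.46 (0.41 to 0.52). Pgk1 stood at 648 and 299 (0.46), Pgam1 at 843 and 400 (0.47), and the glucose transporter Slc2a1 at 191 and 87.4 (0.46). The hypoxia-induced genes Egln3 and Bnip3 had ratios of 0.31 and 0.44, and Hilpda 0.49. Gapdh had 1.02, Hk2 1.10 and Hif1a 1.13, none of them called. Pgk1 (0.76), Bnip3 (0.73) and Slc2a1 (0.69) were not called with Ass1 not limited, and Egln3 then had 0.55. Medians per barcode were 69.7 and 58.4 UMIs per 10000, with lower quartiles of 46.9 and 37.1 and upper quartiles of 159 and 102. Across control monocytes the list followed depth, with a Spearman rho of 0.41 with UMIs per barcode over 87 barcodes of 1 library, and 0.17 over 99 motolimod barcodes.

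The interferon-gamma response was lower in part. Of 14 genes compared, 7 were lower and 1 higher, with a median log2 ratio of −0.59, and 5 of the 7 were still 1.5-fold lower without the highest barcodes. Cxcl10 stood at 658 and 212 CPM, a ratio of 0.32 (0.26 to 0.39). It was seen in 28.7% and 15.2% of monocytes, and the ratio without the highest barcodes was 0.47. Gbp5 had a ratio of 0.52, Gbp4 0.55, Cd274 0.58, Socs1 0.58, Gbp2 0.62 and the transcription factor Irf1 0.63. Gbp7 had 1.89 and Irgm1 1.10. The calls of Gbp5 (0.67), Gbp4 (0.89) and Gbp7 (1.33) were lost with Ass1 not limited, and Cxcl10 then had 0.57. In C1q macrophages Cxcl10 lay near 1 and 3 guanylate-binding proteins lay above it, with Cxcl10 at 0.98, Gbp5 at 1.66, Gbp4 at 1.65 and Gbp2 at 1.64.

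**Figure D4:**
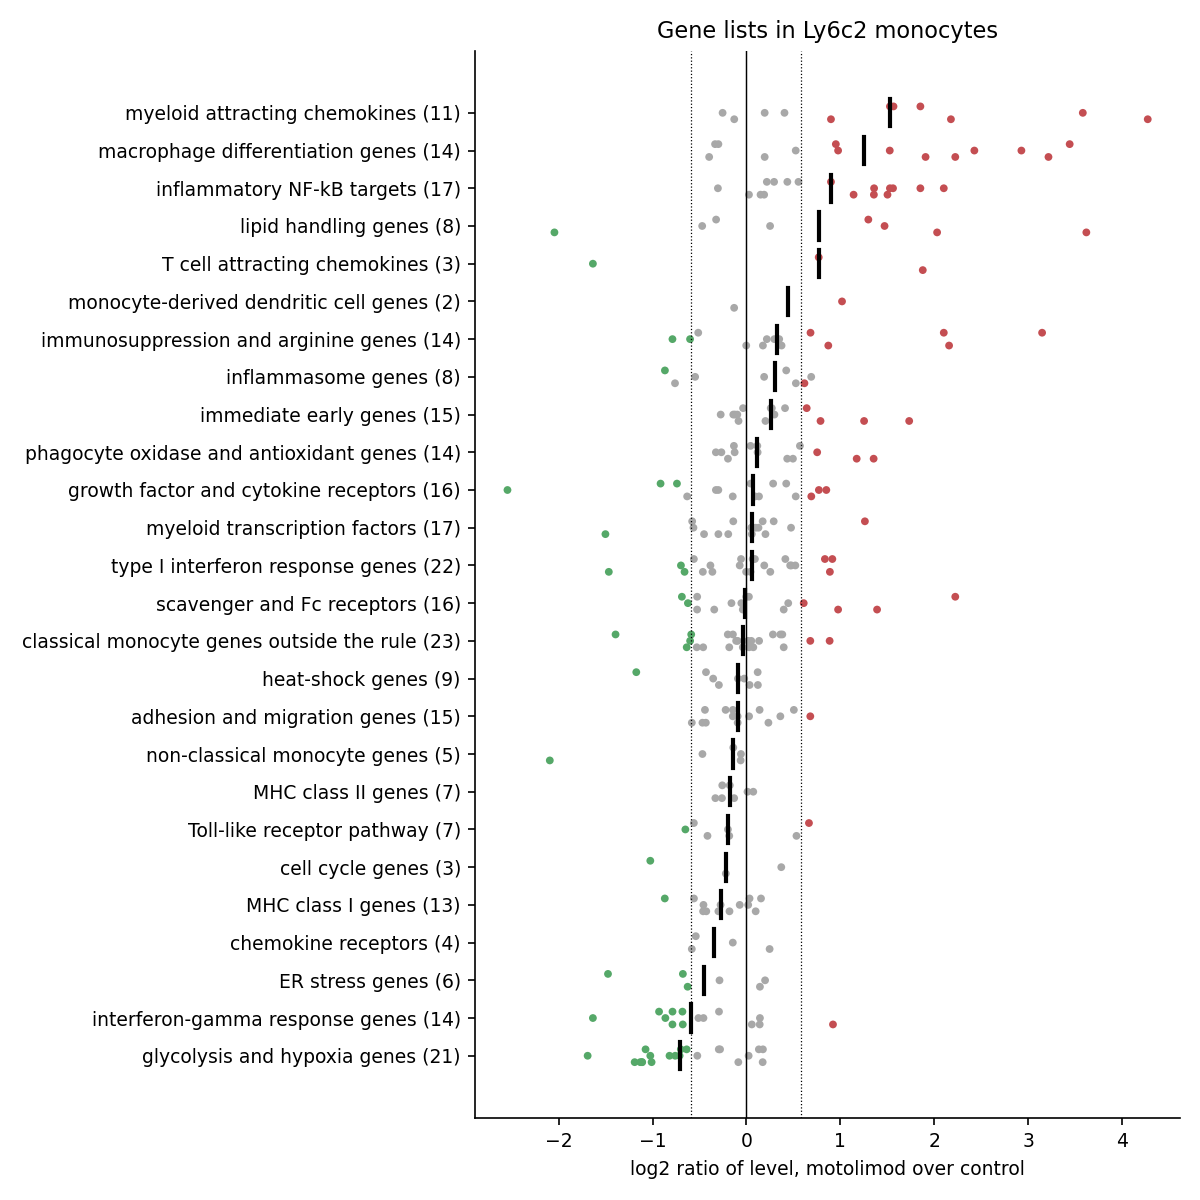
Log2 ratio (motolimod over control) of each compared gene in 26 gene lists, with the number of genes compared in parentheses. Black bars are list medians, dotted lines mark 1.5-fold, red and green points are genes called higher and lower, and grey points are not called. Myeloid chemokines (median 1.53) and macrophage differentiation genes (1.25) stand at the top, and glycolysis and hypoxia genes (−0.71) at the bottom.

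Genes of the type I interferon response differed in both directions, with 3 of 22 higher, 3 lower and a median log2 ratio of 0.06. Oas2, Oas3 and Ifi204, which sense or respond to nucleic acid, had ratios of 1.89, 1.85 and 1.79. Isg15, a ubiquitin-like protein, stood at 1670 and 1058 (0.63), Oasl1 had 0.62 and Ifi205 0.36. Without the highest barcodes all 3 higher genes and 1 of the 3 lower genes kept a 1.5-fold difference. Oas3 was not called with Ass1 not limited (1.39), nor were Oas2 (1.46) and Ifi204 (1.30) among monocytes of 4000 to 20000 UMIs. Per barcode, Ly6c2 and this list had a Spearman rho of 0.51 over 87 control and 0.46 over 99 motolimod barcodes, each of 1 library. Since Ly6c2 chose the members, this is a description only. With UMIs per barcode, Ly6c2 had a rho of −0.16 in the control and −0.27 in the motolimod library. The list had −0.07 and −0.32, and the part of depth was not tested.

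Few antigen presentation genes were called. For MHC class II, 0 of 7 genes were called in either direction, and the median log2 ratio was −0.18. H2-Ab1 stood at 2121 and 1771 CPM and was seen in 37.9% and 47.5% of monocytes. At least 10 UMIs of H2-Aa, H2-Ab1 and H2-Eb1 together were found in 18 of 87 control and 33 of 99 motolimod monocytes (20.7% and 33.3%). The deepest control monocyte alone held 23.4% of the control H2-Ab1 UMIs, and the median of the list was 0.04 without it. With the monocytes that had 3 or more markers of another class left out, H2-Aa had a ratio of 1.86 in place of 0.88 and H2-Eb1 1.85 in place of 0.80. Among monocytes of 4000 to 20000 UMIs they had 1.86 and 1.78, and H2-Ab1 had 1.69 in place of 0.83, so the direction of these genes rests on which barcodes are kept. For MHC class I, 1 of 13 genes was lower, Psmb8, a subunit of the immunoproteasome, at 1075 and 589. Its ratio of 0.55 became 0.73 with Ass1 not limited and was not called.

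Classical monocyte genes that the rule did not use had 2 of 23 higher and 4 lower, with a median log2 ratio of −0.04. Chil3 (chr3:106147554-106167564, minus strand) stood at 649 and 247 CPM, a ratio of 0.38 (0.31 to 0.46), and was seen in 62.1% and 34.3% of monocytes. Haptoglobin (Hp) had 0.64, Emilin2 0.66 and Gsr 0.67. Fibronectin (Fn1) had 1.60 and Cd93, a receptor of myeloid cells, 1.85, and Cd14, Itgam, S100a6 and Ms4a4c lay between 0.87 and 1.05. Without the highest barcodes 1 of the 2 higher and 1 of the 4 lower genes kept a 1.5-fold difference, as Fn1 had 1.44, Hp 0.745, Emilin2 0.681 and Gsr 0.698. Cd93 turned to 0.92 with Ass1 not limited, and Hp then had 0.757 and was not called. Of non-classical monocyte genes, 1 of 5 was lower, the peptidase Ace at 71.8 and 16.8, and 5 of 5 had ratios below 1.

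Receptors for growth factors and cytokines had 3 of 16 higher and 3 lower. Il1r2, the decoy receptor for interleukin-1, stood at 265 and 45.4 CPM, a ratio of 0.17 (0.109 to 0.259), and was seen in 29.9% and 16.2% of monocytes. Tnfrsf1a had 0.53 and Csf2rb, a chain of the GM-CSF receptor, 0.60, while Tnfrsf1b had 1.61, Il6ra 1.71 and Ifnar1 1.80. With Ass1 not limited Il1r2 had 0.49, and Tnfrsf1a (0.70), Il6ra (1.40) and Ifnar1 (1.18) were not called.

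Among myeloid transcription factors 1 of 17 was higher and 1 lower. Irf8, which sets monocyte and dendritic cell fate, stood at 467 and 165 CPM, a ratio of 0.35 (0.28 to 0.45), with 33.7% of control UMIs in 1 barcode and a ratio of 0.50 without the highest barcodes. Cebpa had 2.40, and Spi1 (PU.1) 0.67, which the 1.5-fold limit left out. Cst3, cystatin C, had 0.27, with 35.1% of the control UMIs in 1 barcode. Irf8 (0.70), Cebpa (1.35) and Cst3 (0.81) were not called with Ass1 not limited.

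Toll-like receptors were sparse in monocytes. Tlr8, the named target of the drug, was counted 5 times in control and 4 times in motolimod monocytes, a ratio of 0.79 (0.16 to 3.66), so a difference was not detectable at this depth. Tlr7 was counted 11 and 25 times, a ratio of 2.24 (1.06 to 5.03), under the minimum of 50 UMIs for a comparison. Of the 7 pathway genes above that minimum, Tlr2 was higher (1.59) and Irf5 lower (0.64), and Irf7 had 0.68 and the adaptor Myd88 0.75. Neither Tlr2 (1.47) nor Irf5 (0.71) was called with Ass1 not limited.

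Neutrophil genes had some of the highest ratios. S100a8, the alarmin of neutrophils and some monocytes, stood at 403 and 3578 CPM, a ratio of 8.87. Of its motolimod UMIs 67.0% lay in 1 barcode, and without the highest barcodes the ratio was 2.97. S100a9 had 4.46, and 1.86 without them. At least 10 UMIs of the pair were found in 4 control and 14 motolimod monocytes. With the monocytes that had 3 or more markers of another class left out, S100a8 had a ratio of 1.61. Neutrophils were 2.75% of control and 7.85% of motolimod barcodes by a gate on Csf3r, S100a8 and S100a9, and the part of their RNA in these values was not tested.

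Of oxidase and antioxidant genes 3 of 14 were higher, the oxidase subunits Ncf1 (2.26) and Cybb (1.69) and the cystine transporter Slc7a11 (2.56). Slc7a11 had 1.37 and was not called with the monocytes that had 3 or more markers of another class left out. It stood at 339 and 1169 CPM in neutrophils, whose part in the result was not tested. Ncf1 and Cybb both had 1.36 with Ass1 not limited and were not called. Arg1, arginase, stood at 306 and 560 with a ratio of 1.83, in 20.7% and 17.2% of monocytes, and with 38.1% of motolimod UMIs in 1 barcode the ratio without the highest barcodes was 1.16. Scavenger and Fc receptors had 4 of 16 higher and 2 lower, with Clec4a1 at 2.62 and Fcgr3 at 0.62. Clec4a1 had 1.64 with Ass1 not limited. Of ER stress genes 3 of 6 were lower, Herpud1 (0.36), Xbp1 (0.63) and Hspa5 (0.65), and with Ass1 not limited Herpud1 (0.75) and Hspa5 (1.01) were not called. Cycling was rare, and Mki67 was seen in 2.30% and 2.02% of monocytes.

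The remaining genes named by rank have mixed roles. Tmem176b and Tmem176a, neighbouring ion channel genes of immature dendritic cells and macrophages, had ratios of 5.08 and 4.19, and Tnip3, an inhibitor of NF-kB signalling, 5.47. Sh3bp5 had 5.03 and Lacc1, an enzyme of macrophages, 4.03. The call of Lacc1 was lost with Ass1 not limited (1.25), with Ass1, Cbr2 and Gpnmb not limited (1.35) and with the rule applied at 3000 UMIs per barcode (1.31), and Sh3bp5 had 2.74 with Ass1 not limited. Cish, which restrains cytokine signalling and follows STAT5, stood at 73.5 and 15.1 (0.21). Cd244a, a receptor of the SLAM family, was seen in 42.5% and 8.08% of monocytes (0.24). Spint1, a protease inhibitor, had 0.20, Gcnt2 0.29, Impa2 0.30, Gm19951 0.32, Snx17 0.33, Eva1b 0.33 and Trem3 0.34. With Ass1 not limited Spint1 had 0.62, Cish 0.58, Cd244a 0.45, Gcnt2 0.52, Snx17 0.64, Eva1b 0.63 and Trem3 0.57. Tmem176b had 3.33 in that set.

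The other lists had few genes called. T cell chemokines had 2 of 3 higher (Ccl5 at 3.68 and Cxcl16 at 1.71) and 1 lower, Cxcl10. Monocyte-derived dendritic cell genes had 1 of 2 higher, the lectin Clec10a (2.03), and chemokine receptors had 0 of 4 called, with Ccr1 at 0.67 and Cxcr4 at 1.19. Immunosuppression and arginine genes had 5 of 14 higher, of which S100a8, S100a9, Arg1 and Nos2 are given above, and 2 lower. Inflammasome genes had 1 of 8 higher, the sensor Nlrp3 (1.53), and 1 lower, the pore protein Gsdmd (0.55). Adhesion genes had 1 of 15 higher (Fn1), heat-shock genes had 1 of 9 lower (Hspa1b, 0.44), and cell cycle genes had 1 of 3 lower (Tubb5, 0.49). Of these, Cxcl16 (0.97), Nlrp3 (1.17), Gsdmd (0.75), Hspa1b (0.83) and Tubb5 (1.13) were not called with Ass1 not limited. Clec10a had 3.84 in that set.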

How the data were processed

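Droplet 3′ single-cell RNA sequencing (10x Genomics) gave 1 control and 1 motolimod library. Per the file headers, the deposited matrices hold whole-number UMI counts that were not normalized, with lists of barcodes and genes. The authors processed reads on the mm10 build with Cell Ranger, whose version is 5.0.1 in the submitters' processing notes and 7.1.0 per the file headers; the intron setting is not given in the sources used here. Each library lists 32285 genes, and 38 symbols with several identifiers were left out of the comparison, as were mitochondrial genes and the genes of the rule.

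UMIs of monocytes were summed per library and divided by all monocyte UMIs. Levels have exact Poisson intervals, shares exact Clopper-Pearson intervals and ratios exact conditional binomial intervals, all at 95% and for counting error only. No test was possible with a single library in each group. Cells were not clustered. Scrublet in scanpy 1.11.5 called 0 doublets at its own cutoff, which is no working call; the highest 448 and 694 scores, which included 0 and 7 monocytes, were removed as an alternative only. Other classes were gates on counts, all with fewer than 3 UMIs of Krt18. T cells had at least 2 UMIs of Cd3e and Cd3g, fewer than 5 of Lyz2, at most 1 of C1q and none of Csf3r. Neutrophils had at least 2 of Csf3r, at least 10 of S100a8 and S100a9, at most 1 of C1q and none of Cd3e or Cd3g. C1q macrophages had at least 5 of Lyz2, at least 10 of C1q and none of Ly6c2, Cd3e, Cd3g, Csf3r or Siglech. Genes named were the 15 highest and 15 lowest called genes with at least 50 CPM and a UMI in at least 20% of monocytes of the higher library, whose level reached 0.5 times that of all other barcodes there. Up to 4 genes per list with the largest log2 ratio, Pf4, Tlr7, Tlr8 and the genes of the rule were named too, and other list genes were named after their values were seen. The members, the 26 gene lists and the tests were chosen with earlier results of these data known. The calls were tested on simulated Poisson counts. These held no variation among barcodes, so that test does not cover genes whose UMIs lie in few barcodes. Some genes of the lists are not reported here. Positions come from GENCODE M21 and promoters from RefSeq. Python 3.11.15, numpy 2.4.6, scipy 1.17.1, pandas 2.3.3 and matplotlib 3.10.9 were used.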

Additional observations from a re-analysis of the deposited data

Results flagged for a closer look

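Of the genes chosen by the naming criteria above, 3 were called lower in motolimod monocytes while their level in C1q macrophages of the same libraries was at least 1.5-fold higher. Gbp2, outside those criteria and given with the interferon-gamma genes, was also called lower in monocytes and over 1.5-fold higher in C1q macrophages. Chil3 had a ratio of 0.38 in monocytes and 2.67 in C1q macrophages (1.88 to 3.78), where it stood at 2.22 CPM in the control and 5.92 CPM in the motolimod library. Gbp4 had 0.55 in monocytes and 1.65 in C1q macrophages (1.53 to 1.78). Gbp5 had 0.52 in monocytes and 1.66 in C1q macrophages (1.51 to 1.82). With 1 library per group the differences between the classes were not tested.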

How the results depend on the processing

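No paired analysis was possible because each group has 1 library. The ratio of monocyte shares, 0.914, moved to 0.518 with Ass1 not limited. It lay above 1 with a stricter cell filter (1.22), with the rule applied at 3000 UMIs per barcode (1.18) and of myeloid barcodes (1.15). The rule at 3000 UMIs took 147 control and 142 motolimod barcodes. Thinning came before the rule there, so these are not only the 87 and 99 monocytes. Genes called higher numbered 282, and 165 with the rule at 3000 UMIs, 108 with monocytes thinned to 3000 UMIs, 561 with Ass1, Cbr2 and Gpnmb not limited, 507 with at least 10 UMIs and 78 with at least 200. Genes called lower numbered 269, and 143, 418, 458 and 82 in the thinned, not limited, 10 UMI and 200 UMI settings. The cause was not tested, other than that fewer or more genes and cells enter each. The median of T cell chemokines turned from 0.77 to −0.36 with the rule at 3000 UMIs, −0.038 with Ass1 not limited and −0.23 with Ass1, Cbr2 and Gpnmb not limited. With Ass1 not limited Cd93 turned to 0.92, Tubb5 to 1.13 and Hspa5 to 1.01. Cxcl16 turned to 0.78 with the rule at 3000 UMIs to 0.97 with Ass1 not limited and to 0.85 with all 3 not limited. Over 15 alternatives the medians of macrophage differentiation genes (0.59 to 1.59), myeloid chemokines (0.76 to 1.57) and NF-kB targets (0.36 to 0.94) stayed above 0. Those of glycolysis and hypoxia genes (−0.83 to −0.40) and interferon-gamma genes (−0.85 to −0.20) stayed below 0, while MHC class II lay above 0 in 9 of 15. Of 80 named genes called, 18 were called in the same direction in all 15, among them Apoe, Pf4, Pltp, Selenop, Ms4a7, Cxcl2, Chil3, Cxcl10 and Il1r2. S100a9 gave no value without monocytes that had at least 3 markers of another class, as it was then at 0 in control monocytes. Cst3 had 0.80 and Irf8 0.57 without the same monocytes. Leaving out those monocytes or the deepest control monocyte, and not limiting Ass1, Cbr2 or Gpnmb, were chosen after the data were seen.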

Other observations

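Barcodes that met every condition but had a UMI of Ass1 numbered 220 in the control and 99 in the motolimod library. In the control library they had Ly6c2 at 3095 CPM, Plac8 at 2067 and Ccr2 at 321, close to the 2962, 2461 and 379 of the monocytes. They had more MHC class II, with H2-Ab1 at 3585 against 2121 and a UMI in 64.1% against 37.9%. In the motolimod library H2-Ab1 stood at 5097 in the Ass1 barcodes against 1771 in the monocytes, and Apoe at 896 against 3412. Adgre1 stood at 83.9 against 173 there, and Cxcl2 at 2776 against 5186. Cd209a, a lectin of type 2 conventional and monocyte-derived dendritic cells, stood at 144 in the motolimod Ass1 barcodes and at 16.3 in the control ones, with a UMI in 8.08% and 1.36%. Among Ass1 barcodes Apoe stood at 784 in the control and 896 in the motolimod library.

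A few genes with extreme ratios rested on 1 barcode and were chosen here after their values were seen. Ngp and Camp, granule proteins of immature neutrophils, were at 0 in control monocytes, and 1 motolimod monocyte held all Ngp and 98.8% of Camp UMIs. Ctsk, a protease of osteoclasts and some macrophages, was at 0 in motolimod monocytes, and 1 control monocyte held 99.5% of its UMIs.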
